A study of Mus musculus with 8 samples.

Results

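The transcription factors that set hepatocyte identity, Hnf4a, Foxa1, Foxa2, Foxa3, Cebpa, Onecut1, Onecut2 and Prox1, were followed in the livers of mice on 2 diets. They were chosen by gene symbol, and all 8 were among the 11784 genes listed. The livers were those of male C57BL/6J animals, 4 on the Control diet (TD.140711) and 4 on the Low AA diet (TD.140712), in which less of the energy came from amino acids and more from carbohydrate. Both diets were defined mixtures of amino acids, started at 9 weeks of age and fed for about 4 months, and all mice were fasted overnight for about 16 hours before the livers were taken in the morning. No gene was altered in any mouse. Poly(A) RNA of whole liver was sequenced, so each value averages over hepatocytes and all other liver cells, and fewer cells of a type and less RNA per cell cannot be told apart. The question was whether a diet low in amino acids changes the RNA of these regulators.

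HNF4A is a nuclear receptor that binds many genes of lipid, bile acid and amino acid metabolism in the adult liver. FOXA1, FOXA2 and FOXA3 are forkhead proteins, and FOXA1 and FOXA2 are known as pioneer factors that open chromatin before other factors bind. CEBPA is a leucine zipper protein that maintains the metabolic program of resting hepatocytes, ONECUT1 (HNF6) and ONECUT2 are cut-homeodomain proteins of hepatocytes and bile ducts, and PROX1 is a homeodomain protein that acts in liver mainly as a corepressor. These factors bind at each other's genes and form a network of mutual regulation.

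Because the factors are known to act at each other's promoters, stretches of 5 promoters are shown, read from RefSeq (GRCm38.p6) within the 250 bases before an annotated start. They are printed 5′ to 3′ on the strand of the gene, without bases that GENCODE M21 places in exons of that gene, and capitals mark matches to short motifs. Hnf4a has a start far upstream, whose stretch is chr2:163506607-163506807 on the plus strand, and the start used in adult liver, whose stretch is chr2:163546943-163547154 on the plus strand, between exons of the longer form. The Foxa1 stretch is chr12:57546122-57546361 on the minus strand, between exons of the gene. That of Foxa2 is chr2:148046970-148047219 on the minus strand, just before the gene, and that of Cebpa is chr7:35119043-35119292 on the plus strand, just before the gene.
Hnf4a, upstream start: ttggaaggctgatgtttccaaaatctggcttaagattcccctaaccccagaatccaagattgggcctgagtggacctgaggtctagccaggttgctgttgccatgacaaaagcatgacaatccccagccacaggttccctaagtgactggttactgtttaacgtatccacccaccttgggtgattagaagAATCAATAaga
Hnf4a, adult liver start: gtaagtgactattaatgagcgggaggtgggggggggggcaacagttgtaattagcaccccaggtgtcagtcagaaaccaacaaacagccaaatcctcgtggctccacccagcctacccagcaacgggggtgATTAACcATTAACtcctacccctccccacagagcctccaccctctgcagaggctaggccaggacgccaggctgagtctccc
Foxa1: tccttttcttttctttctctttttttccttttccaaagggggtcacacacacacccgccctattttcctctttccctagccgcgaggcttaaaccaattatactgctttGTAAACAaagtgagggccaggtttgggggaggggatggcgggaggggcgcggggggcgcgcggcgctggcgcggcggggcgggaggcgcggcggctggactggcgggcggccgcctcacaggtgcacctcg
Foxa2: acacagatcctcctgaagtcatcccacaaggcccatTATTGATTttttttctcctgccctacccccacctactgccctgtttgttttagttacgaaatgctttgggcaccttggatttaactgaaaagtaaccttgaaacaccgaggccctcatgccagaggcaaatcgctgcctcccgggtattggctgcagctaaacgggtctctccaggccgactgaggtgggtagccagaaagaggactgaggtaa
Cebpa: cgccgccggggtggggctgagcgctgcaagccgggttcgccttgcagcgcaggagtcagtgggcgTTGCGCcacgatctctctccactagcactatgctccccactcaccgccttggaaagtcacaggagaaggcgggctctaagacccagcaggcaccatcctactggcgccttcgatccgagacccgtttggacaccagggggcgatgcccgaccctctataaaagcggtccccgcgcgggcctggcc

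In the upstream Hnf4a stretch the capitals mark the ONECUT motif AATCAATA, at -60 to -53 counted from the start. In the adult liver stretch they mark the HNF1 core letters GTTAAT, read on the other strand, at -81 to -76 and at -74 to -69. The Foxa1 stretch holds the forkhead motif TGTTTAC on the other strand at -141 to -135, the Foxa2 stretch the ONECUT motif on the other strand at -214 to -207, and the Cebpa stretch the CEBP core letters TTGCGC at -185 to -180. Both strands were searched, and no match overlapped another. Of 11 RefSeq windows of 7 factors, 6 held a match, among them an HNF1 match before another Foxa2 start. The HNF4 motif CAAAGTCC was in 0 of the 11. Over 32851 windows of all genes, TGTTTAC was in 3.17%, CAAAGTCC in 1.2%, TTGCGC in 5.34%, AATCAATA in 0.718% and GTTAAT in 6.43%. The matches describe letters only, and the motifs were chosen after these promoters had been seen.

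The values are scaled read counts, which summed to 28361406 to 29485422 in the Control mice and to 27876664 to 30799385 in the Low AA mice. The liver label was checked on 20 genes for hepatocyte products, all of them listed, with Alb (albumin) at 1321262 to 1789498. Control mouse F2212 stood apart: Cela1, a pancreatic elastase, was at 36587 there and at 130 to 288 in the other 7 mice. The other 9 acinar genes looked for were not among the genes listed. The third highest value of a listed gene was never under 28, so a gene high in F2212 alone would be missing too. Their absence therefore does not tell how much pancreatic RNA F2212 held. The values that moved most without F2212 are given beside the results they touch.

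None of the 8 factors differed between the diets at an adjusted p under 0.05 in limma, with Benjamini-Hochberg adjustment over all genes, against 0.399% of all genes. At an unadjusted p under 0.05 there were also 0 of 8, against 11.8% of all genes. In 0 of 8 were the 4 Low AA mice clear of the 4 Control mice, against 6.81% of all genes. Fold changes are on the scale of log2(value + 1), are positive where the Low AA mice were higher, and ran from -0.48 for Foxa3 to 0.25 for Prox1. Of the 8, 5 had a higher and 3 a lower mean in the Low AA mice, and their median was 0.09 beside 0.00 over all genes. The 95% interval lay within a 2-fold change for 6 of the 8 and within a 1.5-fold change for 3, and the widest reached 2.23-fold.

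Hnf4a had by far the largest scaled read counts of the group. In the Control mice F129, F2212, F7111 and F2110 they were 19901, 21291, 30238 and 22370, and in the Low AA mice H1126, H828, H817 and H1315 they were 19198, 26670, 28550 and 24519. The lowest mouse was on Low AA, the highest was on Control, and the groups overlapped over most of their range. The means were 23450 ± 4640 on Control and 24734 ± 4040 on Low AA (SD, n = 4 each). The log2 fold change was 0.08 with a standard error of 0.16 and a 95% interval of -0.28 to 0.44 (limma adjusted p = 0.899, exact permutation test, two-sided, p = 0.686). Leaving out each mouse in turn moved the log2 fold change between 0.01 and 0.21. In linear terms the interval runs from 0.824 to 1.36 times the Control level.

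Cebpa was the second factor in level, and its mean was lower in the Low AA mice. It was at 6170, 8929, 5670 and 5483 in the Control mice and at 4314, 4136, 5998 and 6123 in the Low AA mice, in the same order of mice. H1126 and H828 were below every Control mouse, H817 and H1315 lay among them, and F2212 was well above all others. The means were 6563 ± 1600 and 5143 ± 1060 (SD, n = 4 each). Its log2 fold change was -0.35 (standard error 0.18, 95% interval -0.76 to 0.07, limma adjusted p = 0.521, exact permutation test, two-sided, p = 0.229). Leaving out each mouse in turn moved it between -0.44, without H1315, and -0.19, without F2212.

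Among the forkhead factors, Foxa3 had the largest difference of the 8. It was at 1127, 1554, 1287 and 1012 in the Control mice and at 597, 1090, 1460 and 629 in the Low AA mice. H1126 and H1315 were well below every Control mouse, while H817 was above 3 of them. The means were 1245 ± 235 and 944 ± 411 (SD, n = 4 each), and the log2 fold change of -0.48 (standard error 0.27, 95% interval -1.08 to 0.12) did not pass (limma adjusted p = 0.542, exact permutation test, two-sided, p = 0.257). Without H817 it was -0.73, the single case among all alternatives in which a factor had an unadjusted p under 0.05 (limma unadjusted p = 0.0104), and the limma adjusted p was then 0.395.

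The pioneer factors Foxa1 and Foxa2 had lower values than Hnf4a, Cebpa and Foxa3. Foxa1 was at 380, 273, 395 and 300 in the Control mice and at 296, 403, 439 and 306 in the Low AA mice. Foxa2 was at 334, 449, 406 and 316 in the Control mice and at 261, 299, 407 and 417 in the Low AA mice. For each gene the diets overlapped over most of the range. The means of Foxa1 were 337 ± 59.7 and 361 ± 70.9 (SD, n = 4 each), which gave a log2 difference of 0.10 with a 95% interval of -0.29 to 0.48 (limma adjusted p = 0.888). Those of Foxa2 were 376 ± 62.2 and 346 ± 77.9 (SD, n = 4 each), which gave a log2 difference of -0.13 with a 95% interval of -0.53 to 0.27 (limma adjusted p = 0.836). The exact permutation test, two-sided, gave p = 0.543 for each. Without F2212 the log2 fold change was 0.00 for Foxa1 and -0.04 for Foxa2, and leaving out each mouse in turn moved the value of Foxa2 between -0.23 and -0.01.

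The ONECUT factors were far apart in level. Onecut2 was at 1827, 1827, 3002 and 2445 in the Control mice and at 2416, 3292, 2935 and 1909 in the Low AA mice. Onecut1 was at 16, 44, 30 and 37 in the Control mice and at 31, 31, 50 and 25 in the Low AA mice, so that a single mouse, F129, was below 25. Values this low carry a large counting error, and scaling hides how many reads stood behind them. Onecut2 had means of 2275 ± 565 and 2638 ± 605 (SD, n = 4 each) and a log2 fold change of 0.22 (95% interval -0.23 to 0.67, limma adjusted p = 0.753), between 0.10 and 0.36 with each mouse left out in turn. Onecut1 had means of 31.8 ± 12 and 34.2 ± 10.9 (SD, n = 4 each) and a log2 fold change of 0.15 (95% interval -0.59 to 0.89, limma adjusted p = 0.913), which turned to -0.14 without F129 and to -0.05 without H817.

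Prox1 was the most variable factor. It was at 812, 433, 1952 and 1446 in the Control mice and at 1544, 946, 1519 and 889 in the Low AA mice, a span of 4.51-fold whose lowest and highest mice, F2212 and F7111, were both on the Control diet. The 4 Low AA mice all lay between these. The means were 1161 ± 673 and 1224 ± 355 (SD, n = 4 each). Its log2 fold change was 0.25 (standard error 0.41, 95% interval -0.66 to 1.15, limma adjusted p = 0.873, exact permutation test, two-sided, p = 0.686). Without F2212 the sign turned and the value was -0.15.

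**Figure D1:**
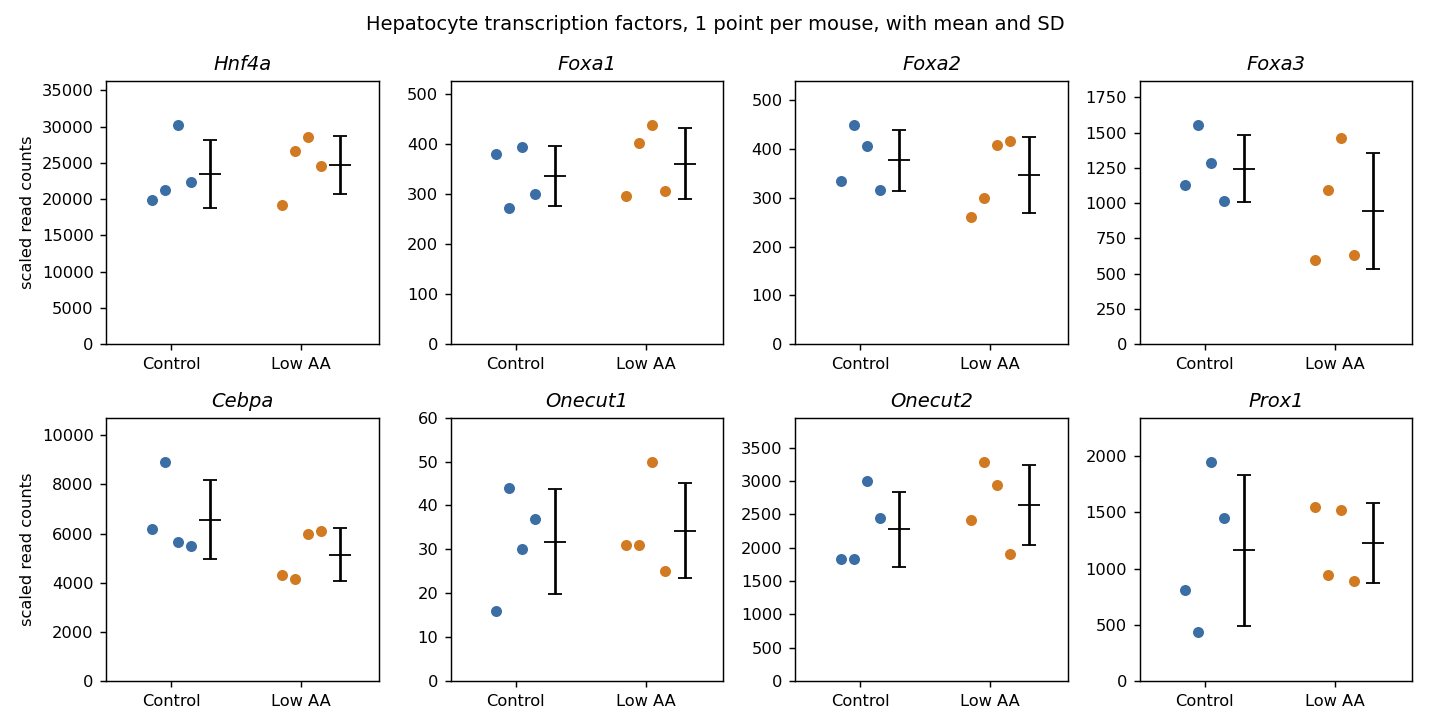
Scaled read counts (vertical axis, from 0) of the 8 factors in 4 Control and 4 Low AA mice, 1 point per mouse, with horizontal marks for the mean and bars for the SD. The diets overlap in every panel, and the widest scatter is that of Prox1, from 433 to 1952.

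**Figure D2:**
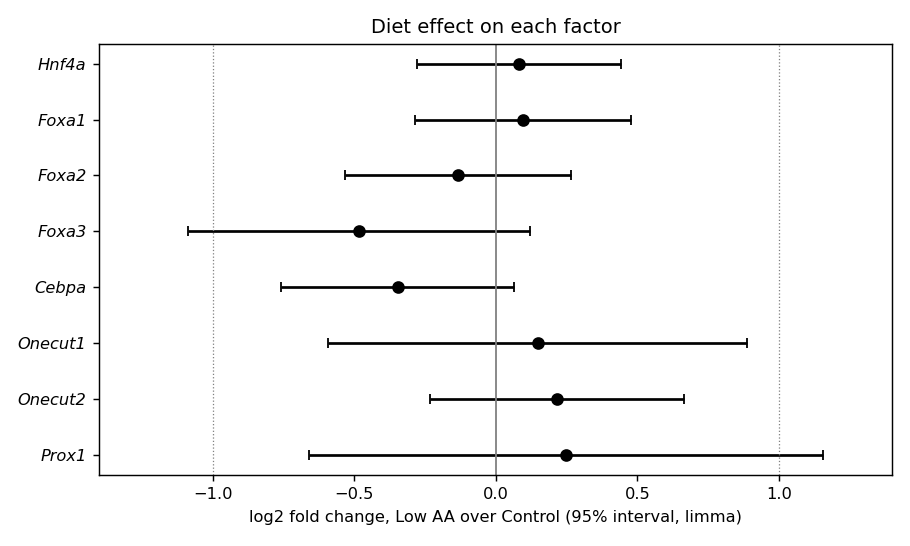
Log2 fold change of each factor, Low AA over Control (horizontal axis), with the 95% interval from limma as a bar and dotted lines at a 2-fold change either way. Every interval includes 0, and those of Foxa3 and Prox1 reach past a 2-fold change.

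The spread between mice on the same diet was wide for several factors. On the log2 scale the within-diet SD was 0.26 for Hnf4a, 0.27 for Foxa1, 0.29 for Foxa2, 0.31 for Cebpa, 0.35 for Onecut2, 0.48 for Foxa3, 0.52 for Onecut1 and 0.74 for Prox1, beside a median of 0.22 over all genes. All 8 were above that median, and Prox1 was at the 98.2 percentile of all genes. Hnf4a, the steadiest of the 8, was at the 63.6 percentile. From the lowest to the highest mouse, Hnf4a spanned 1.58-fold and Cebpa 2.16-fold.

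To compare the factors with each other, values were divided by the exon length of each gene, as scaled read counts per kilobase of all GENCODE exons. Over all 8 mice, Hnf4a was at 4990 ± 846 per kilobase, Cebpa at 2220 ± 558 and Foxa3 at 537 ± 171 (SD, n = 8 each). Each of these was above the next factor in 8 of 8 mice. Foxa2 was at 152 ± 28.4 per kilobase, Onecut2 at 151 ± 35.5, Prox1 at 142 ± 59.5 and Foxa1 at 105 ± 18.6 (SD, n = 8 each). The order of these 4 was not settled, since Foxa2 was above Onecut2 in 3 of 8 mice, Onecut2 above Prox1 in 4 and Prox1 above Foxa1 in 5. Onecut1, at 8.02 ± 2.59 per kilobase, was the lowest in 8 of 8 mice. Among the 11646 genes with a length, Hnf4a was at the 97.6 percentile of level, Cebpa at the 95.1 and Foxa3 at the 84.6. Foxa2 was at the 61.7 percentile, Onecut2 at the 61.6, Prox1 at the 59.9, Foxa1 at the 52.3 and Onecut1 at the 4.7. The order below Cebpa depends in part on the length used: per kilobase of the median coding transcript, Prox1 was next after Foxa3, at 363 ± 152. Foxa3 was then above Prox1 in 7 of 8 mice, and Prox1 above Foxa2 in 7 of 8.

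**Figure D3:**
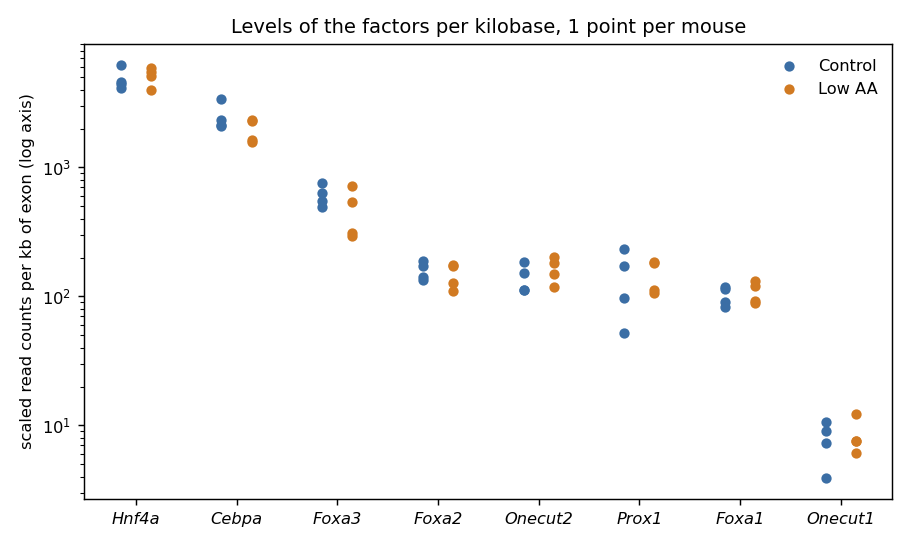
Scaled read counts per kilobase of exon (vertical log axis) for the 8 factors in falling order of their mean, 1 point per mouse, coloured by diet. Hnf4a, Cebpa and Foxa3 form separate steps from 4990 to 537 per kilobase, the next 4 overlap between 51.6 and 233, and Onecut1 lies lowest.

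Within the FOXA family, Foxa3 made up most of the RNA per length. Its share of the sum of the 3 was 68.44%, 73.75%, 68.54% and 68.97% in the Control mice and 59.55%, 68.39%, 70.24% and 53.54% in the Low AA mice. The Control mice were close together, and the low values were those of H1126 and H1315. The mean shares were 69.9 ± 2.56% and 62.9 ± 7.81% (SD, n = 4 each), a difference of -6.99 percentage points (exact permutation test, two-sided, p = 0.2). Without H817 the difference was -9.43 percentage points (exact permutation test, two-sided, p = 0.0286 unadjusted). The groups were then apart only by the gap between 68.39% in H828 and 68.44% in F129, and per length of the longest transcript H828 (66.73%) was above F129 (66.71%). The share of Foxa1 was 11.9 ± 2.71% and 15.6 ± 2.11%, a difference of 3.74 percentage points (SD, n = 4 each, exact permutation test, two-sided, p = 0.0571), and it was 2.43 without F2212. That of Foxa2 was 18.2 ± 0.531% and 21.5 ± 6.65%, a difference of 3.25 percentage points (SD, n = 4 each, exact permutation test, two-sided, p = 0.457), which was 0.23 without H1315, the mouse with the highest Foxa2 share at 30.51%. With 4 mice a group this test cannot go below 0.0286. Onecut1 made up 5.36 ± 2.42% of the ONECUT pair on Control and 4.9 ± 1.11% on Low AA (SD, n = 4 each, exact permutation test, two-sided, p = 0.8).

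Cebpa was also set against Cebpb, its relative that rises in acute-phase and fasting responses. Cebpb was at 908, 782, 546 and 992 in the Control mice and at 673, 1022, 657 and 865 in the Low AA mice, means of 807 ± 194 and 804 ± 173 (SD, n = 4 each). The log2 ratio of Cebpa to Cebpb was 3.03 ± 0.50 on Control and 2.68 ± 0.49 on Low AA (SD, n = 4 each). The difference of -0.35 was smaller than either SD (exact permutation test, two-sided, p = 0.371), and it ran from -0.54 without F2110 to -0.13 without H828, with -0.19 without F2212.

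Among the factors themselves, 28 pairs were compared over the 8 mice, of which 20 had a positive and 8 a negative correlation of log2 values. None passed after adjustment over the 28, by Pearson's r (lowest adjusted p of the exact permutation test 0.19) or by Spearman's rho (lowest adjusted p of the exact permutation test 0.34). The highest r was that of Foxa2 and Cebpa, 0.82 (exact permutation p = 0.0068, adjusted 0.19), with a rho of 0.83 (exact permutation p = 0.0154, adjusted 0.34). It was 0.60 without H1126 and H828, the mice farthest from the median of Foxa2, and within the diets it was 0.73 in the Control and 0.95 in the Low AA mice. Next came Hnf4a and Onecut2 with an r of 0.70 (exact permutation p = 0.065, adjusted 0.4) and a rho of 0.73 (exact permutation p = 0.0485, adjusted 0.34), and r was 0.80 without the mice farthest from the median of Hnf4a. Without H1315, a pair of forkhead factors, Foxa2 and Foxa3, passed with an r of 0.92 (exact permutation test, adjusted p = 0.0278), where all 8 mice gave 0.52.

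**Figure D4:**
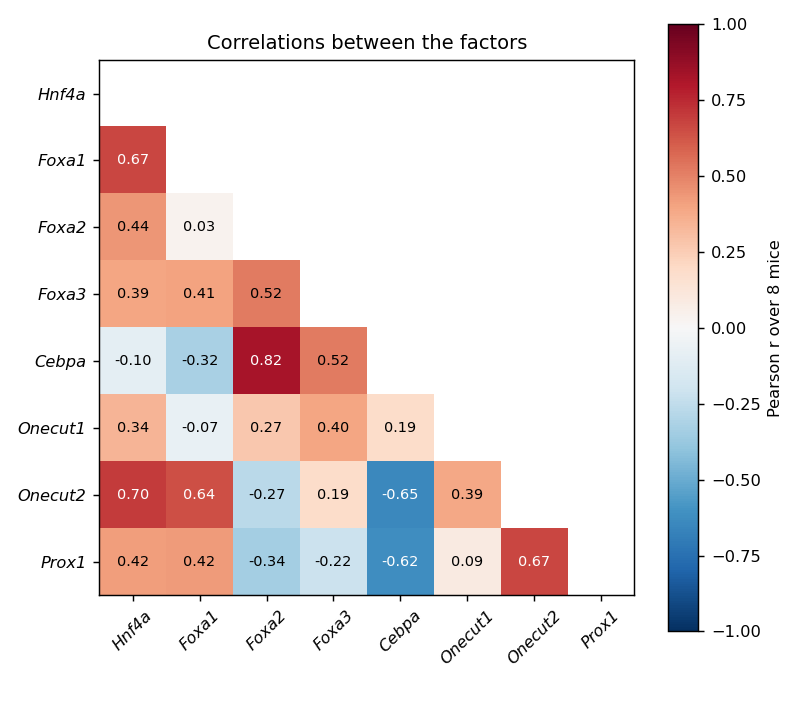
Pearson's r between the log2 values of each pair of factors over 8 mice, red for positive and blue for negative. The darkest cell is Foxa2 with Cebpa at 0.82, and Cebpa has negative values with Onecut2 and Prox1, the genes with the most exon bases of the 8.

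The mice differed in how values ran with gene length, and the factors were compared with this. For each mouse, the deviation of every gene from its mean was fitted on log2 exon length, which gave a length slope: positive where long genes read high. This measure was chosen after values had been seen. It was -0.056, -0.165, 0.116 and 0.047 log2 units per doubling of length in F129, F2212, F7111 and F2110, and 0.043, 0.073, 0.017 and -0.077 in H1126, H828, H817 and H1315. F2212 and F7111, the extremes for Prox1, were the extremes here too.

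Prox1, with 8390 exon bases, had an r of 0.88 with the length slope (exact permutation p = 0.00538) and a rho of 0.76 (exact permutation p = 0.0368). Onecut2, with 16234 exon bases, the most of the 8, had an r of 0.86 (exact permutation p = 0.0066) and a rho of 0.86 (exact permutation p = 0.00893). Adjusted over the 11646 genes, the exact permutation p of r was 0.0605 for Prox1 and 0.0663 for Onecut2, so neither passed, while 6.8% of those genes did. Without F2212 and H1315, the mice farthest from the median slope, r was 0.66 and 0.80. Cebpa, with 2636 exon bases, had an r of -0.79 (exact permutation p = 0.0226, adjusted 0.128) and a rho of -0.81 (exact permutation p = 0.0218), and its r was -0.42 without those mice. Among 2129 genes of at least 8000 exon bases, 83.2% had a positive r and 15.9% passed. The slope was fitted on all genes with a length, these included, so long genes lean to a positive r by construction.

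With the fitted line on length removed from each mouse, 0 of the 8 factors passed for diet. The log2 fold change was then 0.24 for Prox1, 0.18 for Onecut2, -0.31 for Cebpa (limma adjusted p = 0.408) and -0.44 for Foxa3. The r of Onecut2 with Prox1 went from 0.67 to 0.30, and that of Foxa2 with Cebpa from 0.82 to 0.73. Values of RNA quality were not used here, and their part in the length slope was not tested.

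**Figure D5:**
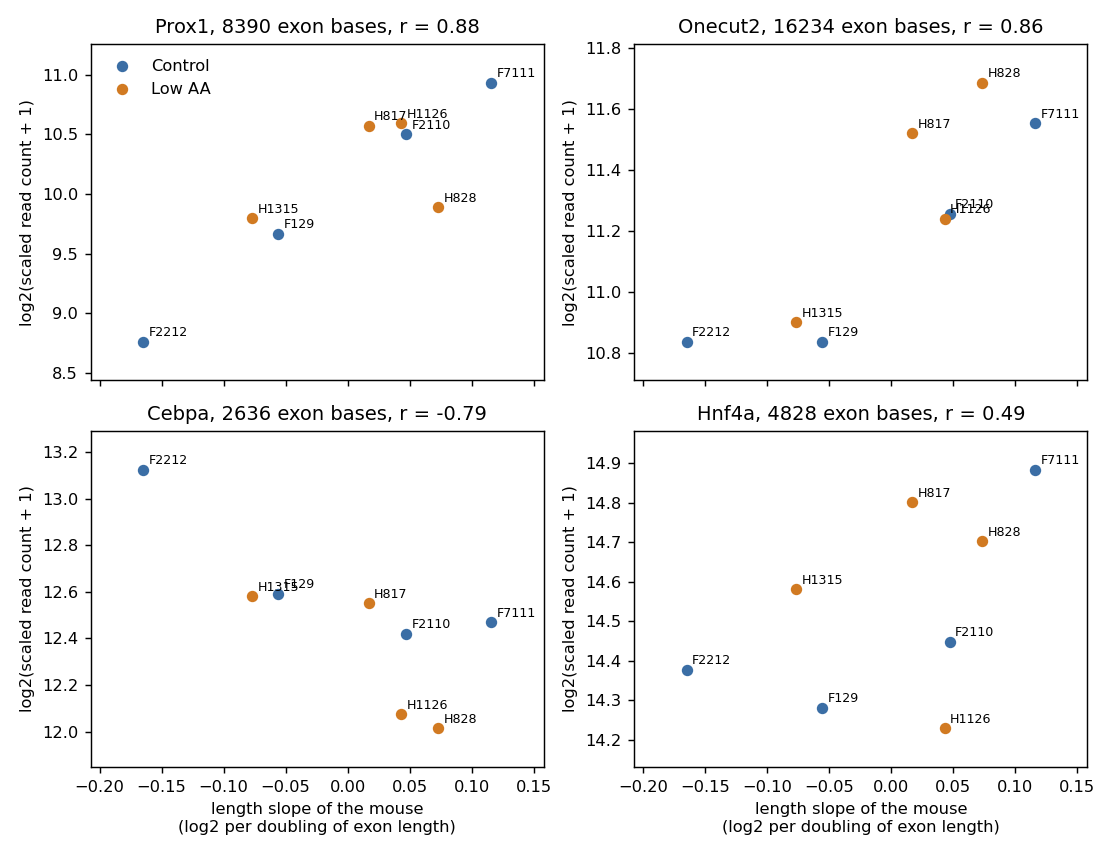
Log2 value of Prox1, Onecut2, Cebpa and Hnf4a (vertical axes) against the length slope of each mouse (horizontal axis, log2 per doubling of exon length), 1 labelled point per mouse, coloured by diet. Prox1 and Onecut2 run up and Cebpa runs down with the slope, with F2212 at the left end and F7111 at the right, and Hnf4a has a looser relation with an r of 0.49.

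The genes whose values followed each factor most closely over the 8 mice were taken from the whole table by Pearson's r, as a description. They were BC024479 (0.96) and Hinfp (0.95) for Hnf4a, Rint1 (0.96) and Mdm2 (0.96) for Foxa1, Slc25a45 (0.95) and Napa (0.94) for Foxa2, and Gm5643 (0.93) and Zfp830 (0.92) for Foxa3. For Cebpa they were Tinf2 (0.98) and Men1 (0.95), and for Onecut1 Pik3cg (0.92) and Git1 (0.88). For Onecut2 they were Whsc1l1 (0.98) and Arhgef12 (0.98), with 16513 and 13620 exon bases, and for Prox1 Trim44 (0.99) and Rab18 (0.98). They are the highest of all 11784 genes over 8 mice and carry no test.

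Known target genes of the factors were read from lists. Of 23 genes that HNF4A is known to act on, 0 passed for diet, with a median log2 fold change of -0.08. Of 14 CEBPA targets and of 8 ONECUT targets, 0 passed as well, with medians of 0.05 and 0.02. Of 12 FOXA targets, the median was 0.18 and 1 passed, against 0.399% of all genes. The target that passed was Serpina1e, a secreted protease inhibitor. It was at 119919, 102253, 146819 and 97955 in the Control mice and at 40367, 24869, 48443 and 50875 in the Low AA mice. It fell by 1.54 on the log2 scale (standard error 0.23, limma adjusted p = 0.0212), with every Low AA mouse below every Control mouse. Serpina1e has near-identical copies between which reads can be split, so its value is uncertain. The lists were chosen with earlier results of these data known, so nothing is read from this count.

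No factor tested had a relation with its targets that passed. The target lists share genes, some of them in every list, so these relations are not separate from each other. Over 8 mice, the mean z score of the targets had an r of -0.41 with Hnf4a, -0.52 with Foxa2, -0.43 with Cebpa and -0.44 with Onecut1, with exact permutation p of 0.313, 0.185, 0.298 and 0.287 and an adjusted p of 0.313 for each. Spearman's rho ran from -0.43 to -0.32, with an adjusted exact permutation p of 0.433 for each. Without the mice farthest from the median of the factor, r was -0.37, -0.57, -0.22 and -0.39. With columns rescaled to equal totals, r became -0.81 for Foxa2 and -0.79 for Cebpa (exact permutation test, adjusted p = 0.0263 and 0.0185). Without F2212, and without that rescaling, r was 0.12 for Cebpa and -0.22 for Foxa2. The rescaled values were not tested without F2212.

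Of 30 other liver transcription factors listed, 0 passed for diet, with a median log2 fold change of 0.05, 18 higher and 12 lower. In 2 of the 30 the mice did not overlap between diets, a share close to the 6.81% of all genes. Nr2f2 (COUP-TFII, an orphan nuclear receptor) was at 703, 677, 899 and 781 on Control and at 592, 626, 497 and 565 on Low AA, or -0.42 as a log2 fold change (limma adjusted p = 0.188). Esrra, an orphan nuclear receptor of mitochondrial genes, was at 695, 740, 625 and 813 on Control and at 833, 823, 957 and 1012 on Low AA, or 0.34 as a log2 fold change (limma adjusted p = 0.276). Esrra is also a known partner of PROX1, and of 7 listed genes that are partners of PROX1 or, as Cyp7a1, its target, 0 passed. Of 13 genes for coactivators, corepressors and the insulin-regulated forkhead factors Foxo1 and Foxo3, 0 passed. Their median log2 fold change was 0.16, with 11 positive and 2 negative. For most of these 13 the lowest mouse was the Control mouse F2212, and the split was not recomputed without it. All 20 hepatocyte products fell short of the threshold too, with a median of 0.01. So did the 5 fetal liver genes listed of 10 looked for, with a median of 0.03, 3 higher and 2 lower. Of these 5, 2 had a limma unadjusted p under 0.05, against 11.8% of all genes. The 2 went opposite ways, with log2 fold changes of 0.40 and -0.76.

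Other cells of the liver also hold some of these factors, Onecut1 and Prox1 in particular, so their markers are given beside them. Of 6 bile duct markers other than Onecut1, 5 had lower means in the Low AA mice and 1 passed, against 0.399% of all genes. These lists too were chosen with earlier results of these data known, so nothing is read from this count. The median log2 fold change of these markers was -0.62, with summed values of 1596 to 2810 on Control and 1124 to 1738 on Low AA. Over all mice the highest mean of these was that of Spp1 (1270 ± 541 and 944 ± 201) and the lowest that of Krt19 (42.0 ± 20 and 21.5 ± 6.45, SD, n = 4 each). Tff3, a trefoil factor, was the marker that passed (limma adjusted p = 0.00134), at 147 ± 33.7 on Control and 8.5 ± 4.65 on Low AA (SD, n = 4 each), or -4.05 as a log2 fold change. Of 9 endothelial markers, led by Stab2 with Cldn5 lowest, 0 passed, with a median of 0.08 and sums of 6745 to 9143 on Control and 7966 to 8711 on Low AA. Of 10 macrophage markers, from Cd5l down to Cd68, 0 passed. All 10 had a positive log2 fold change, some of them small, with a median of 0.21 and sums of 9200 to 14483 and 10115 to 14006. Of 10 stellate cell markers, with Dcn highest and Col1a1 lowest, 0 passed, with a median of -0.16 and sums of 11664 to 14236 and 11277 to 14082. Col1a1, a collagen gene, was at 105 ± 35.3 on Control and 49.0 ± 15 on Low AA (SD, n = 4 each) without overlap of the mice, and its log2 fold change was -1.07 (limma adjusted p = 0.148). Of 6 blood markers, with Beta-s highest and S100a9 lowest, 0 passed, with a median of -0.48 and sums of 7448 to 27937 and 9558 to 13966. The highest of these sums was that of F2212, which also had the highest Beta-s (13504) and S100a9 (130) of the 8 mice. The median was not recomputed without F2212. No marker listed was at 0 in any mouse, and the part of these cells in the values of the factors was not tested.

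On GRCm38, GENCODE M21 places Hnf4a at chr2:163506808-163572910 and Foxa2 at chr2:148042877-148046969. Foxa1 lies at chr12:57540628-57546916, Foxa3 at chr7:19013284-19023538 and Cebpa at chr7:35119293-35121928. Onecut1 lies at chr9:74861921-74891781, Onecut2 at chr18:64340020-64400987 and Prox1 at chr1:190118035-190170714. Exons of 3 factors share bases with an RNA gene that is not in the table: Cebpa 51 bases with Gm45091 and Prox1 133 bases with Prox1os, both on the opposite strand, and Onecut1 2171 bases with Gm20649 on its own strand. Reads of Onecut1 and Gm20649 cannot be told apart in the shared bases, and Onecut1 is uncertain for that reason too.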

How the data were processed

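Total liver RNA was made into stranded poly(A) libraries and sequenced. The authors deposited 1 table of a signal per gene and mouse: read counts multiplied by a factor and rounded to whole numbers. The submitters' processing notes name bcl2fastq 1.8.2, STAR 2.5.0a, RSEM 1.2.6, edgeR 3.10.5 and R 3.2.1 with build mm10. The sources used here do not say how the scaling was done or whether counting used strand. The scaling was inferred from gaps among the low whole numbers, and depth before scaling is unknown. The third highest value of a gene was never under 28, so low genes had been removed before deposit. The deposited fold change and FDR columns hold the authors' own comparison and were not used.

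Diets were compared on log2(value + 1) in R 4.3.3, using limma 3.58.1 (mean-variance trend, Benjamini-Hochberg adjustment over 11784 genes, threshold 0.05), and tested on simulated data first. Count models were not used because the values are scaled. Single values were compared by exact permutation tests, two-sided, in Python 3.11.15 with scipy 1.17.1. Mice are separate animals and no number pairs them across diets. Older symbols were matched through RefSeq synonyms.

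The factors and lists were chosen with earlier results of these data known. The motifs, the length slope and its correction, and the other exon lengths were chosen after the values or promoters had been seen. Genes named were the 8 factors, called genes of the lists, other liver transcription factors without overlap between diets, Cebpb, the 2 genes nearest each factor by Pearson's r, the markers of other cells with the highest and lowest means, and Cela1. Alternatives were other pseudocounts (0.1 and 5), only the 8000 genes of highest mean, equal column totals, median of ratios, no trend, robust moderation and each mouse left out in turn.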

Additional observations from a re-analysis of the deposited data

Results flagged for a closer look

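In 34 groups of 4 mice examined for a mouse far from the others, 2 had one, close to the 1 in 20 that chance gives. Both were the Control mouse F2212. For Cela1, its gap to the nearest Control mouse was 0.945 of the range of the group on the log2 scale. For the Foxa3 share of the FOXA family, 73.75% in F2212 beside 68.44% to 68.97% in the other Control mice, the gap was 0.9 of the range.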

How the results depend on the processing

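No factor passed for diet under any alternative. Onecut1 was not among the 8000 genes with the highest mean, so only the other factors were tested there. Of the values recomputed, 331 kept their direction and side of the threshold or moved little. The count of all genes called was 47. It was 19 among the 8000 genes with the highest mean, 30 without the trend and 95 with the length correction, which was added after values had been seen. Leaving out each mouse gave 16 to 77, with 77 without F2212, 29 without F129, 21 without H1126, 19 without H828 and 16 without H817. The log2 fold change of Onecut1 ran from -0.14 (without F129) to 0.33 and was -0.05 without H817, that of Prox1 from -0.15 (without F2212) to 0.57, and that of Foxa1 from -0.01 (without H817) to 0.18. That of Foxa3 ran from -0.73 (without H817) to -0.30 (without H1126). Pairs of factors passing ran from 0 to 1, the 1 without H1315. The r of Hnf4a with its targets was 0.09 with the length correction, that of Cebpa ran from -0.63 to 0.12 (without F2212), and with equal totals r was -0.81 for Foxa2 and -0.79 for Cebpa. The difference in Onecut1 share ran from -1.13 to 0.65 percentage points (without F2212), that in Foxa2 share from 0.23 (without H1315) to 5.03, and that in Foxa3 share from -9.43 (without H817) to -3.86. The causes were not tested. With 4 mice a group, the intervals of all 8 factors allow changes that would not have passed here. Those of Foxa3, Prox1 and Onecut1 were the widest.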
